A study of Rattus norvegicus with 10 samples.

Results

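Oxytocin, vasopressin and corticotropin-releasing hormone (CRH) are neuropeptides of the paraventricular and supraoptic nuclei of the hypothalamus. The genes described here are their precursors Oxt, Avp and Crh, urocortin (Ucn, a CRH-related peptide), the oxytocin receptor Oxtr, the vasopressin receptor Avpr1a, the CRH receptors Crhr1 and Crhr2, and the CRH-binding protein Crhbp. The rule that chose them uses gene names and no measured value, and takes all probe sets that the platform annotation assigns to 1 of these 9 genes and to no other gene. Of the 9 genes, 7 were measured, each by 1 probe set, out of 14217 genes named on the array. Crhr1 and Crhr2 are not named by such a probe set and were not analysed here.

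The samples are the right sides of the brains of 10 male Wistar rats aged 7 weeks, with 1 Affymetrix array per rat. The 5 control rats breathed vapor of distilled water for 5 min, and the other 5 breathed vapor of DMHF, a methylated hydroxyfuranone that gives strawberries part of their smell. Each flask held 5 mL of liquid, rats waited 10 min after inhalation, and all were killed before the dark period. No transgene, deletion or other agent is named for either group. The titles call the rats of a group biological replicates, and their litters, cages and array batches are not known here. The design holds a single comparison, DMHF against control.

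Magnocellular neurons make oxytocin or vasopressin and release them from the posterior pituitary into the blood, where oxytocin acts on uterus and mammary gland and vasopressin on the kidney. Parvocellular neurons of the paraventricular nucleus release CRH toward the anterior pituitary, which starts the stress axis that ends in glucocorticoid secretion. Vasopressin is also made in the suprachiasmatic nucleus, the circadian clock, and Crh in interneurons of cortex and in the amygdala. The right side of a brain holds all these sites together, so fewer cells of a type and less RNA per cell cannot be told apart in these values.

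Oxt and Avp are neighbouring genes on opposite strands of rat chromosome 3. Their upstream sequences are shown because they drive the precursors of oxytocin and vasopressin, the peptides at the centre of this system. Each run ends at the base before the transcript start and is read 5′ to 3′ along the strand of its gene, from RefSeq's rat assembly GRCr8. Capitals mark the nuclear receptor half-site TGACC, read on both strands (as TGACC or GGTCA), and the E-box CACGTG. The upstream 250 bases of Oxt lie at chr3:138235504-138235753 on the plus strand and those of Avp at chr3:138248523-138248772 on the minus strand.
Oxt: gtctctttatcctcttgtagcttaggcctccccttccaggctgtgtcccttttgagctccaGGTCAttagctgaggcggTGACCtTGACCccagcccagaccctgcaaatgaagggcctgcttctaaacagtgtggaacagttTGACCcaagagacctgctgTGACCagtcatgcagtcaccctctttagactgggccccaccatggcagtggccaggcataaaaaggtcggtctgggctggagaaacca
Avp: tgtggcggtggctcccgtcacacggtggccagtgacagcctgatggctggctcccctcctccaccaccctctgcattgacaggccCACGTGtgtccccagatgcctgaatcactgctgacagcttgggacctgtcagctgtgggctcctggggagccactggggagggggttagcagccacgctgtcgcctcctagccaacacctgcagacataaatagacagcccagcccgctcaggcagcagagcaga

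The precursors encoded by the pair share a closely similar neurophysin segment, and the sequences of the array probes were not analysed here. The Oxt window held 5 copies of TGACC and the Avp window 0, and 35.2% of 27457 rat promoters hold at least 1 copy in the same window. The Avp window held 1 CACGTG, which starts 165 bases before the transcript start, and Oxt held 0. That motif occurs in 5.79% of promoters. The full cyclic AMP response element TGACGTCA, searched on both strands, was in neither window. Among the 8 members with an entry in the promoter table only Ucn held it (1.70% of promoters), starting 110 bases before the transcript start. Crh had no entry, so its upstream sequence was not searched. A match of letters is a description and says nothing about binding in these rats.

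The deposited values are on a log2 scale, and differences between arrays on it were extremely small. For the median probe set the SD across arrays was 2.20 millionths of a log2 unit. Values below are therefore given as differences from the mean of the 5 control rats, in millionths of a log2 unit. They cannot be read as fold changes of RNA, and their size is comparable between rats for 1 gene, not between genes. For that reason differences are also given in units of the pooled SD within groups. Markers of neurons, astrocytes, oligodendrocytes and microglia had means above the median of all probe sets for 8 of 8, 6 of 6, 5 of 5 and 5 of 6 measured genes, where 65.1% of all genes did. Such levels depend on the probes as well as on the RNA, so these counts are only a rough check of the tissue label. Of the 7 measured members, 2 had means above that median. By mean level Avpr1a, Oxtr and Ucn stood at percentiles 8.34, 17 and 17.5 of all probe sets. Whether such low values rise above background was not tested.

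For none of the 7 measured genes did the means of the DMHF and control groups differ by more than the test allows for the spread between rats. Oxt, Oxtr, Avpr1a and Ucn had nominally higher means in DMHF, and Avp, Crh and Crhbp nominally lower ones. With limma, 0 of 7 passed an adjusted p of 0.05 and 0 of 7 an unadjusted p of 0.05, and the smallest of the 7 exact permutation p values (two-sided, unadjusted, 5 rats against 5) was 0.341. Of all 31042 probe sets, 0% passed the adjusted threshold and 5.48% the unadjusted one. The groups overlapped for all 7 members, and of all probe sets 0.867% had groups that did not overlap. The median size of the difference was 0.369 within-group SD over the members and 0.458 over all probe sets.

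**Figure D1:**
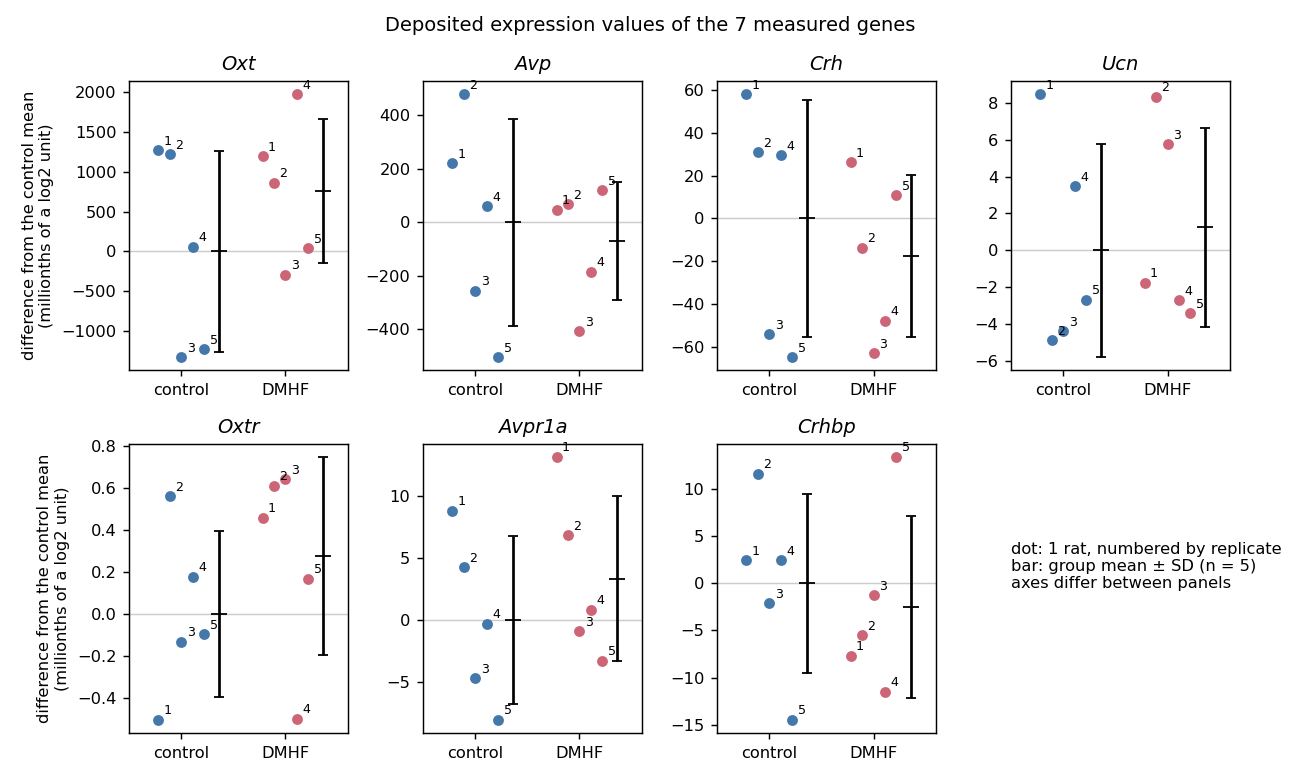
Each panel plots 1 gene, with the difference from the control mean in millionths of a log2 unit on the y axis, 1 dot per rat numbered by replicate, and the group mean ± SD (n = 5) as a bar. Oxt spans 3302 millionths over the 10 rats and Oxtr 1.15, and in every panel the groups overlap.

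Oxt, the precursor of oxytocin and its carrier neurophysin, stood at 1274, 1221, -1327, 59.5 and -1228 millionths in control rats 1 to 5. In DMHF rats 1 to 5 it stood at 1195, 862, -291, 1975 and 43.3 millionths. Control rats 3 and 5 were the lowest of the 10 and DMHF rat 4 was the highest, while 4 of 5 DMHF values lay within the control range. The mean difference was 757 millionths (SE 662, n = 5 per group, 95% interval -745 to 2258), or 0.688 within-group SD, with a limma adjusted p of 0.995. The SD between rats was 1264 millionths in control and 907 in DMHF. With single rats left out the mean difference ranged from 425 without control rat 3 to 1080 without control rat 1.

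Avp, the precursor of vasopressin, stood at 221, 479, -256, 60.1 and -505 millionths in control rats 1 to 5 and at 46.9, 68.1, -408, -185 and 119 in DMHF rats 1 to 5. All 5 DMHF rats lay inside the control range, whose ends were control rats 2 and 5. The difference was -71.7 millionths (SE 190, 95% interval -503 to 360), or -0.227 within-group SD (limma adjusted p = 0.9996). Its sign depended on single rats, with 48.2 when control rat 2 was left out and 12.4 without DMHF rat 3. The SD of Avp between rats was 388 millionths in control and 221 in DMHF.

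Crh stood at 58.3, 31.1, -54.2, 29.7 and -65.0 millionths in control rats 1 to 5. In DMHF rats 1 to 5 it stood at 26.3, -13.8, -63.2, -47.9 and 10.8 millionths. Control rats 3 and 5 and DMHF rats 3 and 4 formed the low end, and all 5 DMHF rats lay inside the control range. The difference was -17.6 millionths (SE 28.7, 95% interval -82.6 to 47.5), or -0.369 within-group SD (limma adjusted p = 0.9996). Without control rat 1 it was -2.99 and without control rat 5 it was -33.8.

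Ucn, a ligand of both CRH receptors, stood at 8.47, -4.88, -4.38, 3.47 and -2.68 millionths in control rats 1 to 5 and at -1.77, 8.34, 5.76, -2.69 and -3.40 in DMHF rats 1 to 5. High values were split between the groups, with control rat 1 and DMHF rat 2 nearly level. The difference was 1.25 millionths (SE 3.37, 95% interval -6.41 to 8.90), or 0.223 SD, and it had the other sign, -0.524, without DMHF rat 2.

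Among the receptors, Oxtr, which couples oxytocin to the Gq pathway, had values of -0.506, 0.560, -0.134, 0.176 and -0.0968 millionths in control rats 1 to 5. Its DMHF values were 0.458, 0.611, 0.643, -0.501 and 0.168. DMHF rats 1, 2 and 3 lay close together at the high end, DMHF rat 4 was nearly as low as the lowest control rat, and the groups overlapped. The difference was 0.276 millionths (SE 0.338, 95% interval -0.491 to 1.04), or 0.633 within-group SD (limma adjusted p = 0.9996). With single rats left out it ranged from 0.150 to 0.470, and with a common array mean it was 2.40 (SE 2.04), outside that interval. The whole span of Oxtr over the rats, 1.15 millionths, was less than the 15.2 millionths by which array medians differed.

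Avpr1a, the main vasopressin receptor of brain and liver, stood at 8.84, 4.29, -4.71, -0.305 and -8.10 millionths in control rats 1 to 5 and at 13.2, 6.84, -0.945, 0.828 and -3.30 in DMHF rats 1 to 5. DMHF rat 1 was the highest of the 10 and the other 4 DMHF rats lay inside the control range. The difference was 3.33 millionths (SE 4.06, 95% interval -5.88 to 12.5), or 0.494 SD, and it was 0.856 without DMHF rat 1.

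Crhbp, a secreted protein that binds CRH and urocortin and keeps them from their receptors, stood at 2.49, 11.7, -2.13, 2.48 and -14.5 millionths in control rats 1 to 5. In DMHF rats 1 to 5 it stood at -7.70, -5.53, -1.28, -11.5 and 13.5. DMHF rat 5 was the highest of all rats and the other 4 lay below the control mean. The difference was -2.51 millionths (SE 5.77, 95% interval -15.6 to 10.6), or -0.262 SD, and 0.398 without control rat 2.

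**Figure D2:**
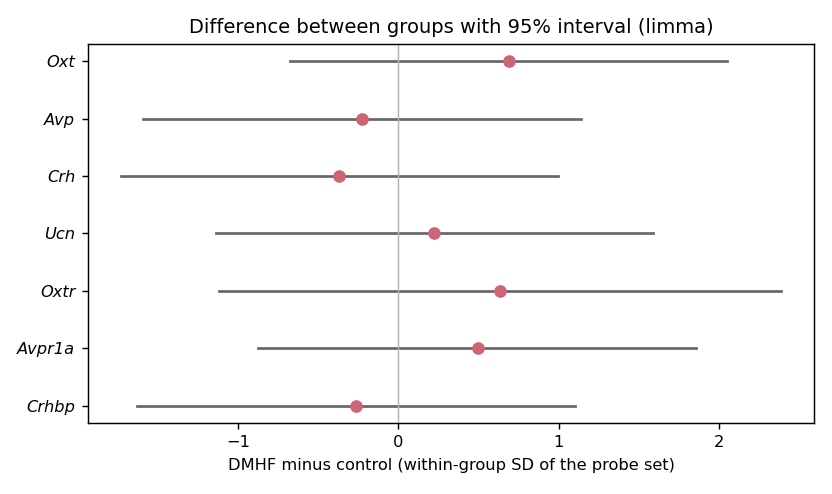
Points give DMHF minus control for each gene in within-group SD of its probe set (x axis) and lines the 95% interval from limma, with n = 5 rats per group. All 7 intervals include 0, with the highest point at 0.688 for Oxt and the lowest at -0.369 for Crh.

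The intervals set how large a difference these arrays could have missed. Their upper ends ranged from 0.996 within-group SD for Crh to 2.39 for Oxtr and their lower ends from -1.73 for Crh to -0.677 for Oxt. For Avp, Crhbp, Oxtr and Ucn the interval reached beyond 1 SD in both directions. They hold for the deposited scaling. With a common array mean Avpr1a differed by 5.45 millionths, Ucn by 3.37 and Crhbp by -0.391, and with array weights Avpr1a differed by 2.09, Avp by -137, Crh by -30.1 and Crhbp by -3.84.

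The members were also compared with one another over the 10 rats. Of 21 pairs of genes, 19 had a positive Pearson correlation in the deposited scaling. Of all other genes, 55.0% correlated positively with Oxt, 52.9% with Avp and 51.9% with Crh. Of the 21 pairs, 4 had an unadjusted permutation p under 0.05 and 1 passed after Benjamini-Hochberg adjustment over the 21 pairs. That pair was Avp and Crh, with r = 0.882 (two-sided permutation p = 0.00063, adjusted p = 0.0132) and Spearman's rho = 0.891 (permutation p = 0.00107, adjusted p = 0.0225) over 10 rats. Control rat 5 and DMHF rat 3 were the lowest for both genes, and without these rats, the farthest from the median of Avp, r was 0.90. After each value was centred on its group mean r was 0.882 as well. With single rats left out r ranged from 0.856 to 0.919, and the adjusted p exceeded 0.05 only without DMHF rat 5 (exact permutation test over 9 rats, adjusted p = 0.0503).

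**Figure D3:**
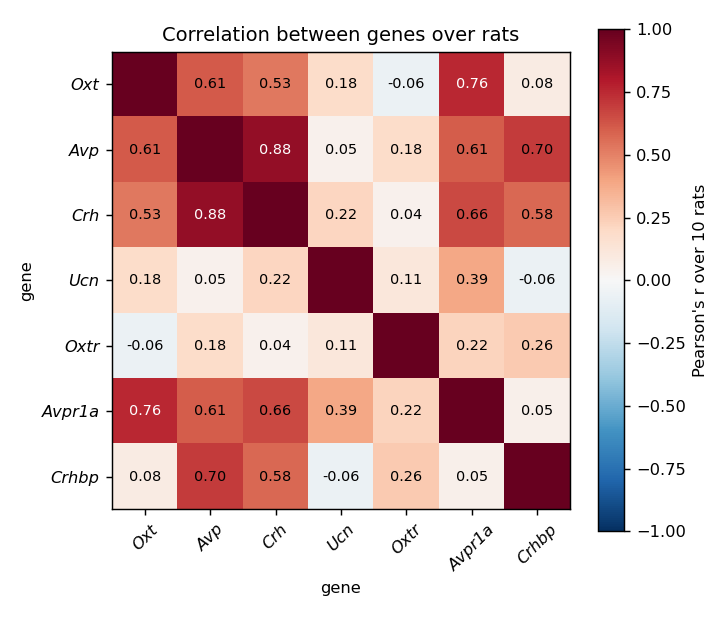
Cells give Pearson's r over the 10 rats for each pair of the 7 genes (both axes list genes, colour runs from -1 to 1). The strongest pair is Avp and Crh at 0.882, and Oxtr and Ucn have r between -0.0619 and 0.387 with every other member.

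The pairs of Oxt with Avp and Crh did not pass with all rats. Its r was 0.613 with Avp (permutation p = 0.0606, adjusted p = 0.218; rho = 0.588, permutation p = 0.0796; 0.521 without Avp's farthest rats) and 0.529 with Crh (permutation p = 0.116, adjusted p = 0.304; rho = 0.648, permutation p = 0.0487; 0.388 without Crh's farthest rats). DMHF rat 4 stood apart in both pairs: it had the highest Oxt of all rats, 1975 millionths, with Avp at -185 and Crh at -47.9, each the second lowest of the DMHF rats. Among control rats, rats 3 and 5 were the lowest and rats 1 and 2 the highest for all 3 peptides. Whether the groups differ in this was not tested, and r is not given within groups of 5 rats. Without DMHF rat 4, picked out here because it departs from the others, 4 of the 21 pairs passed the adjusted exact permutation test over 9 rats. These were Avp with Crh (r = 0.884), Avpr1a with Oxt (r = 0.903), Crh with Oxt (r = 0.827) and Avp with Oxt (r = 0.824). Crh with Oxt and Avp with Oxt were close to the threshold (exact permutation test over 9 rats, adjusted p = 0.0488 each). Since the rat was picked from these same values, the passes describe its weight and are no evidence for the pairs. With all rats Avpr1a and Oxt had r = 0.756 (permutation p = 0.0123, adjusted p = 0.129) and rho = 0.794 (permutation p = 0.00889, adjusted p = 0.0933), and r = 0.719 without Avpr1a's farthest rats. Avp and Crhbp had r = 0.697 (permutation p = 0.0255, adjusted p = 0.179) and rho = 0.733 (permutation p = 0.0209, adjusted p = 0.146), and 0.542 without Avp's farthest rats.

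Some of the correlations depended on how arrays were put on a common scale. When all arrays were given the same median, r of Avp with Oxtr went from 0.181 to -0.837 and that of Oxt with Oxtr from -0.0619 to -0.770, and both passed the adjusted permutation test over 10 rats (adjusted p = 0.0254 and 0.0476). The array medians differed by 15.2 millionths and Oxtr spanned 1.15, so in that setting its values mostly carry the array medians. The tests with Oxtr therefore cannot speak for the receptor. Several other pairs turned from weakly positive to negative in that setting. Among them were Crh with Oxtr (0.0424 to -0.688), Avp with Ucn (0.0463 to -0.529) and Avpr1a with Crhbp (0.0502 to -0.570). The count of 19 positive pairs therefore holds for the deposited scaling only. The r of Avpr1a with Oxt went from 0.756 to 0.380 with a common array median. That of Avp with Crh was 0.861 and still passed (permutation test over 10 rats, adjusted p = 0.0246).

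**Figure D4:**
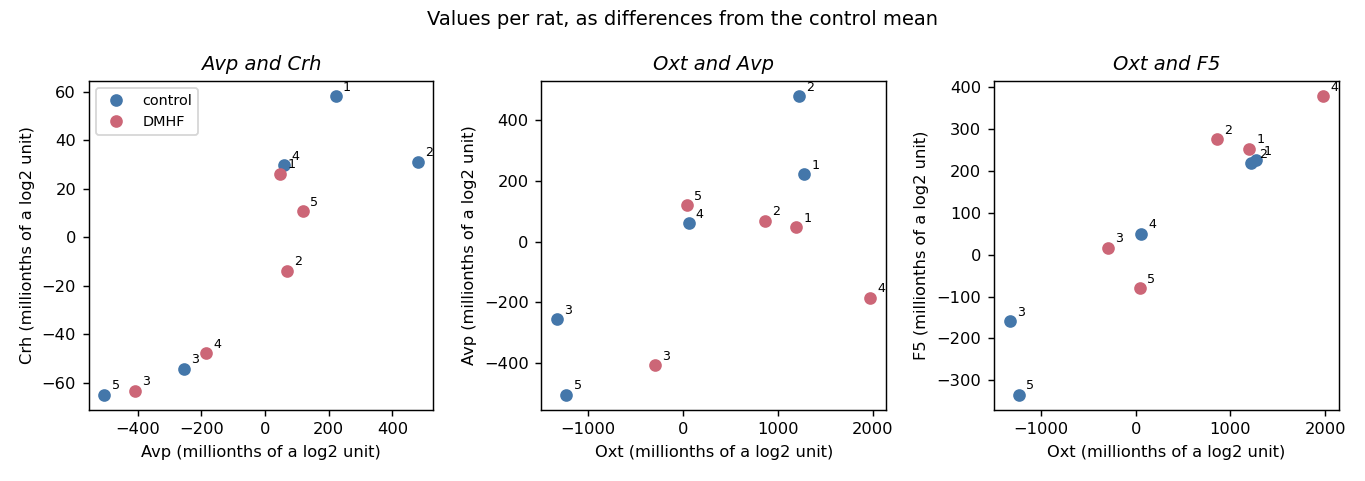
Each panel plots 2 genes against each other, with 1 dot per rat (blue control, red DMHF, numbered by replicate) and both axes as differences from the control mean in millionths of a log2 unit. Avp and Crh are low in the same rats, DMHF rat 4 lies at high Oxt (1975) and low Avp (-185), and the same rat has the highest F5 (379).

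Several marker genes of the choroid plexus, the tissue in the ventricles that secretes cerebrospinal fluid, varied with Oxt from rat to rat. All 7 measured choroid plexus markers correlated positively with Oxt over the 10 rats, where 55.0% of 14216 other genes did. Of the 7, 5 had r above 0.8, where 1.26% of the other genes did. The markers are not independent: F5, Sostdc1 and Ttr were all lowest in control rat 5 and highest in DMHF rat 4. Their count therefore cannot be weighed against a share of single genes. Without control rats 3 and 5, the rats farthest from the median of Oxt, 3 of the 7 had r above 0.8. The share of all genes above 0.8 without those rats was not computed. The coagulation factor F5 had r = 0.949 with Oxt (rho = 0.867, and r = 0.920 without those rats). Sostdc1, a secreted antagonist of BMP signalling, had r = 0.944 (rho = 0.903, 0.902 without those rats). Ttr, the thyroid hormone carrier of cerebrospinal fluid, had r = 0.927 (rho = 0.830, 0.825 without those rats). Folr1, a folate receptor, and Kl had r of 0.830 and 0.801, which became 0.713 and 0.591 without those rats, and Otx2 and Kcnj13 had 0.651 and 0.350 (0.609 and 0.484 without them). With Avp and with Crh all 7 markers were positive as well, but 0 had r above 0.8, and the highest was 0.561 and 0.645. These correlations are descriptions over the same 10 arrays, which share their scaling. The marker list was chosen with earlier results of these data known.

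The same list is given as its mean over genes in within-group SD from the control mean. It ran from -1.10 in control rat 5 to 0.811 in control rat 2, and from -0.313 in DMHF rat 5 to 1.68 in DMHF rat 4. Of its 7 measured markers, which vary together, 6 were nominally higher in DMHF, where 53.0% of all genes were. With limma, 0 passed the adjusted test and 1, Folr1, had an unadjusted p under 0.05 (4.8% of all genes did). The part of this list in the Oxt values was not tested. None of its markers is listed at 0, a value that does not occur on this scale.

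Markers of other cell groups near these neurons were set beside the members in the same way. Among 10 measured peptides and enzymes of other hypothalamic nuclei, 7 had nominally higher means in DMHF, where 53.0% of all genes did. With limma, 0 passed the adjusted test and 3 (Hdc, Npvf and Nmu) had an unadjusted p under 0.05 (4.8% of all genes did). Their list mean ran from -0.339 to 0.366 SD in control and from -0.028 to 1.10 in DMHF. Hdc, the enzyme of histamine synthesis, differed by 6.43 millionths (1.67 SD). Their correlation with Oxt had a median of 0.235 and a highest value of 0.516, for Pmch. The suprachiasmatic markers, near the clock's vasopressin cells, were higher for 4 of 8, with list means from -0.729 to 0.855 SD in control and from -0.421 to 0.456 in DMHF. Anterior pituitary markers were nominally higher for 9 of 9, with 0 past the adjusted limma test and 2 at an unadjusted p under 0.05 (Cga and Tshb, subunits of thyrotropin). The groups did not overlap for Cga (2.58 SD, limma unadjusted p = 0.00211, adjusted p = 0.730). The list had means from -0.926 to 0.654 SD in control and from 0.320 to 1.55 in DMHF. Of the 9 pituitary markers, 1 had a mean above the median of all probe sets, where 65.1% of all genes did. Their median difference was 0.682 SD, with Prl, Fshb and Ghrhr the smallest at 0.0398, 0.126 and 0.273 SD. The part of these marker groups in the members' differences was not tested.

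The genes whose pattern over the 10 rats was most like that of each peptide were picked by Pearson's r among all single-gene probe sets. For Oxt these were Snx6 (r = 0.962), Prlr, the prolactin receptor (0.961), Enpp2, an enzyme abundant in choroid plexus (0.960), Gaa, a lysosomal glucosidase (0.959), and Ddb2 (0.954). For Avp they were Immt, a protein of the mitochondrial inner membrane (0.971), Lamp1, a lysosomal membrane protein (0.947), Usp38 (0.936), Gopc (0.919) and Med21, a subunit of Mediator (0.916). For Crh they were Hmmr (0.963), Ccdc92 (0.948), Abhd11 (0.946), Zfp638 (0.946) and Dok5 (0.941). The 3 groups of 5 genes shared no gene. These r values were the highest among many probe sets over 10 rats, so selection alone makes them high, and they carry no test. For a gene with several probe sets the one with the highest r was taken. With the brightest probe set per gene, 26 of 14216 genes had r above 0.9 with Oxt, 4 with Avp and 12 with Crh. The highest r with Crh was then 0.946, so the brightest probe sets of Hmmr and Ccdc92 followed Crh less closely. Likewise, not all 5 genes named for Avp had r above 0.9 by their brightest probe set.

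Genes that work with these peptides were described from lists chosen by function, with the brightest probe set standing for a gene. Over all 14217 genes 53.0% were nominally higher in DMHF, 4.8% had an unadjusted limma p under 0.05, and the median difference was 0.0477 SD. No member of any list below passed the adjusted test.

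Of the close kin of the members, 2 of 5 measured genes were nominally higher and 3 lower, with a median difference of -0.350 SD. Avpr2, the vasopressin receptor of the kidney, differed by 0.905 millionths (0.589 SD), Avpr1b, the vasopressin receptor of pituitary corticotrophs, by -1.35 (-0.444 SD), and Pomc, the precursor of corticotropin, by -0.379 (-0.448 SD).

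Enzymes and proteins of the secretory granules that mature such peptides were split 6 to 6 among 12 measured genes, with a median of 0.0319 SD. Pcsk1n, an inhibitor of a prohormone convertase, differed by 2.81 millionths (1.86 SD) and was the 1 gene of the list with an unadjusted limma p under 0.05 (unadjusted p = 0.0152, adjusted p = 0.868). Scg2, a granule protein, differed by 4.64 (0.896 SD), and Scg3 by -0.320 (-1.19 SD). Scg2 also had r = 0.886 with Oxt (rho = 0.806, and 0.681 without control rats 3 and 5).

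Transmitters found in the same or neighbouring neurons were split 7 to 7 among 14 genes, with a median of 0.004 SD. Cartpt differed by 911 millionths (1.19 SD), Apln, the precursor of apelin, by -17.1 (-1.14 SD), and Trh, the thyrotropin-releasing hormone precursor, by 27.0 (0.522 SD). Trh, galanin (Gal) and Cartpt had r of 0.881, 0.848 and 0.841 with Oxt over the 10 rats. Without control rats 3 and 5 these were 0.708, 0.766 and 0.498.

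Regulators of the neuroendocrine lineage were nominally higher for 5 of 7 genes, with a median of 0.135 SD. Arnt2, the partner of Sim1, stood at -0.699 millionths (-0.425 SD), Nkx2-1 at 0.761 (0.384 SD) and Sim1 at 0.656 (0.365 SD).

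Signalling proteins downstream of the receptors were split 10 to 10 among 20 genes, with a median of -0.0355 SD. Gna11, a G protein of the Gq family, differed by -2.58 millionths (-1.37 SD), Crem by 0.546 (1.22 SD) and Arrb2, a beta-arrestin, by -1.17 (-0.719 SD).

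Genes of glucocorticoid feedback were nominally lower for 7 of 10, with a median of -0.0943 SD. Nr3c2, the mineralocorticoid receptor, stood at -0.871 millionths (-1.28 SD), Sgk1, a glucocorticoid-induced kinase, at -690 (-0.701 SD), and Tsc22d3, another glucocorticoid target, at -7.44 (-0.530 SD).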

How the data were processed

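The authors deposited 1 table of processed values for 10 arrays, taken as log2 expression from their range of 5.25 to 14.22, since no source used here gives the log base. The authors worked in R 2.7.2, per the submitters' processing notes. How they corrected background, normalized and summarised probe sets, and which step left array differences so small, is not given in the sources consulted. Of 31099 probe sets, 57 controls were left out. GEO's platform annotation named 1 gene for 20826 of the rest, several for 436 and none for 9780. A gene's brightest probe set stood for it in lists.

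DMHF was compared with control over all 31042 probe sets with limma 3.58.1 in R 4.3.3 (lmFit, eBayes, two-sided, no covariate, Benjamini-Hochberg adjustment, threshold 0.05). The exact permutation test used all 252 assignments of arrays, so its smallest p is 0.00794. Correlations used 100000 permutations over 10 arrays and every permutation over 9. The limma script was tested on simulated data. The members and the gene lists were chosen with earlier results of these data known. Named are all members, the 3 genes with the smallest p of each pathway list, the 5 genes of highest r with Oxt, Avp and Crh, and genes of the marker lists. Gal, Irgq, Nr4a1, Per1 and Hsd11b2 are named outside this rule, after their values were seen. The number of arrays limits the precision. Alternatives were a replicate block, other scalings, the brighter 15521 probe sets, array weights, another variance model, 1 probe set per gene and each array left out.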

Additional observations from a re-analysis of the deposited data

How the results depend on the processing

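Over 17 alternatives, 110 of 114 member differences kept their sign and none passed an adjusted p of 0.05 (smallest 0.512). The 4 changes of sign came from leaving out single rats: Avp ranged from -198 to 48.2 millionths, Crhbp from -6.50 to 0.398 and Ucn from -0.524 to 3.36. The number of probe sets past the adjusted threshold ranged from 0 to 1 with single rats left out. The 1 was Irgq, without DMHF rat 2 (adjusted p = 0.0386), named after its value was seen. With a replicate block, 1 member had an unadjusted p under 0.05, Avpr1a (limma unadjusted p = 0.00437, adjusted p = 0.512). The block listed 2217 probe sets at that level in place of 1700. Same-numbered rats are not known to be paired: their deviations correlated at 0.0288 to 0.273, under 0.1 for 3 of 5 numbers. For numbers 1, 3 and 4 the same-numbered rat was still the best-correlated partner, so pairing cannot be settled here. Unadjusted calls were 1002 higher and 698 lower, 208 and 333 with a common array median, and 854 and 241 with a common array mean. Among the brighter 15521 probe sets 700 had such a p, and the direction turned, with 287 higher and 413 lower. With 1 probe set per gene 728 did, 450 higher and 278 lower. Fewer probe sets were tested in both settings. Correlated pairs past the adjusted test numbered 3 with a common array median and ranged from 0 to 4 with single rats left out. The passing pairs with Oxtr under a common array median mostly carry the array medians. The planned choice between probe sets of a member gave no alternative, since each member has 1.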

Other observations

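Of the 10 measured genes of glucocorticoid feedback, 1 had a positive correlation with Oxt over the 10 rats, or 10.0%, where 55.0% of 14216 other genes did. The r values had a median of -0.292 and ran from -0.736 to 0.226, with Pomc (-0.0228) and Hsd11b2 (-0.0643) near 0 and Nr3c2 at the positive end. Nr4a1, an immediate early gene that CRH signalling also induces, had the lowest value, -0.736 with Oxt, and -0.609 with Crh. Sgk1 had -0.701 and -0.448, and Per1, a clock gene that glucocorticoids induce, had -0.628 and -0.756. With Avp and with Crh, 2 of the 10 were positive. These values were looked at after the lists had been compared between groups, they carry no test, and all come from the same 10 arrays.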
